A study of Mus musculus with 8 samples.

Results

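Peaks of open chromatin were examined around 10 genes of inflammatory signalling in BV2 mouse microglial cells: the cytokines Tnf, Il1a, Il1b, Il6 and Il10, the interleukin-1 antagonist Il1rn, the inflammasome sensor Nlrp3, the endotoxin receptor Tlr4, and the enzymes Nos2 and Ptgs2. The genes were taken as a named list, chosen with earlier results of these data known, and a peak was assigned to a member when at least 1 bp of it lay within 10 kb of the gene body in the RefSeq annotation of GRCm38. This gave 91 peaks in 8 lists, which merged into 20 regions of the 40784 regions in the whole series, around 10 of 49943 annotated genes. At 9 of the 10 genes a peak was present in at least 4 libraries, and at Nos2 no library had one. Nlrp3, Il10 and Il1rn each had 1 region that every hypoxic library called and every normoxic library lacked (a hypoxia-only region below), or 3 of 20 against 2.08% of all regions. None of the 3 was hypoxia-only in lists of equal length, and the weak region at Il1rn was not at equal background coverage or with −log10 q of at least 5.

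The assay was ATAC-seq, in which the Tn5 transposase cuts accessible DNA and adds sequencing adapters. BV2, an immortalised mouse microglial line, was kept alone (monoculture) or with GL261 mouse glioma cells (co-culture), under normoxia at 21% oxygen or hypoxia below 0.1% oxygen for 16 h. The 4 groups were monoculture normoxia, monoculture hypoxia, co-culture normoxia and co-culture hypoxia, with 2 biological replicates each. All groups share fixation with formaldehyde, done inside the chamber for hypoxic cells, and a sort of cells positive for the leukocyte surface protein CD45 or for GFP before the transposase was added. The labels do not say which of these markers was used for which library, and all results come from 1 cell line in culture.

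Bacterial endotoxin bound by the product of Tlr4, or cytokines such as tumour necrosis factor, activate NF-kappaB and AP-1 factors, which drive transcription of Tnf, Il1a, Il1b, Il6, Nos2, Ptgs2 and Nlrp3 in macrophages and microglia. Nlrp3 then assembles an inflammasome that activates caspase-1, the protease that cuts the precursor made from Il1b into its secreted form. Il10 encodes a cytokine that restrains this response, and Il1rn encodes a secreted protein that occupies the interleukin-1 receptor without signalling. In resting microglia many of these genes are silent but kept ready by the lineage factors PU.1 and C/EBP at their enhancers.

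The 250 bases before 7 start sites are shown here because the data divide them: peaks covered the start sites of Ptgs2 and Il6 and the downstream start of Nlrp3, and left the upstream start of Nlrp3 and the starts of Tnf, Il1a and Il1b without a peak. Sequences are from RefSeq on GRCm38.p6, 5′ to 3′ on the gene's strand. Capitals mark matches, on either strand, to the hypoxia response cores ACGTG and GCGTG, the kappaB form (GGGA, any 2 bases, TTCC), the AP-1 form TGANTCA, the C/EBP form TTGCNNAA, the PU.1 core GAGGAA, the CRE form TGACGTCA and the TATA box TATAAA.
Nlrp3 downstream start, chr11:59542436-59542685, plus strand: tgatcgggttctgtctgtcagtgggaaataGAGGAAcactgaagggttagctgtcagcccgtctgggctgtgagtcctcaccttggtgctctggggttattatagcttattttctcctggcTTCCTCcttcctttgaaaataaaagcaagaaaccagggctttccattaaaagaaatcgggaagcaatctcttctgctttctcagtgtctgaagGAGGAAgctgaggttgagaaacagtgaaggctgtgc
Nlrp3 upstream start, chr11:59541319-59541568, plus strand: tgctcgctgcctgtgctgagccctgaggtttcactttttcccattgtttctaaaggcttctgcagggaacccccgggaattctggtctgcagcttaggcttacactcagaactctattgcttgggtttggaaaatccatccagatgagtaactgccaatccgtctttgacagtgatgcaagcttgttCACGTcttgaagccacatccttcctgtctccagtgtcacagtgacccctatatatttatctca
Ptgs2, chr1:150099781-150100030, plus strand: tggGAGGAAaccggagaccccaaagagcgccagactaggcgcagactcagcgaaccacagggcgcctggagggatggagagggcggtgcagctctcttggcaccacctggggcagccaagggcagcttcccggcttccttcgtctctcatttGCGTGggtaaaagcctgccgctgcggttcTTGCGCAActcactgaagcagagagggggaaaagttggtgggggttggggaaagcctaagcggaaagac
Il6, chr5:30012864-30013113, plus strand: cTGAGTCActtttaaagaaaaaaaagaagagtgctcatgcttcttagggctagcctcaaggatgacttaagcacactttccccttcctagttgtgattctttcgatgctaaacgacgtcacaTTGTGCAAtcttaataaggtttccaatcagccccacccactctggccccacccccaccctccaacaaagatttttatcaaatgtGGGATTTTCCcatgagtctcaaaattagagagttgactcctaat
Tnf, chr17:35202008-35202257, minus strand: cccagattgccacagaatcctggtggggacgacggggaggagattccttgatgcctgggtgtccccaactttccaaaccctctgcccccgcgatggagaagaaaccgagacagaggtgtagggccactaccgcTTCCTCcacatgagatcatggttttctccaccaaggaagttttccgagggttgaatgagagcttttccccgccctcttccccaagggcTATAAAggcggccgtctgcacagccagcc
Il1a, chr2:129309973-129310222, minus strand: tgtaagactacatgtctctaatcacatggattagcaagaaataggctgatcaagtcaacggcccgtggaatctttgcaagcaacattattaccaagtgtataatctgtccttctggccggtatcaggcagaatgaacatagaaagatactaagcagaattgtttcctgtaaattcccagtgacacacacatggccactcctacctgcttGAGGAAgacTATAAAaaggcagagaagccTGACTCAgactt
Il1b, chr2:129371140-129371389, minus strand: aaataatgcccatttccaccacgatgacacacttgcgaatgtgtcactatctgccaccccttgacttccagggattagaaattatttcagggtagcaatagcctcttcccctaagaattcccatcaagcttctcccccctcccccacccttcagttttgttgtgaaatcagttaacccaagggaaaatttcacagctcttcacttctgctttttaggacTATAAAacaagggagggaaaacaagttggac

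The RefSeq table of start sites held 10 entries for 7 of the 10 members, and Il10, Nos2 and Tlr4 were not among them. The window before the downstream start of Nlrp3 held 3 PU.1 cores, with first bases at −220, −129 and −36 from the start, and no hypoxia response core. A PU.1 core occurs in 23.3% of the 32851 windows of this length. The window before the upstream start of Nlrp3 held 1 ACGTG core, found in 16.6% of windows. The Ptgs2 window held a GCGTG core (28.2% of windows), a C/EBP match (9.56%) and a PU.1 core, and its GC content of 61.6% was the highest of the 10 entries. The Il6 window held a kappaB match (1.21%), an AP-1 match (6.75%) and a C/EBP match. The windows of Tnf, Il1a and Il1b each held a TATA box (12.4%). The Tnf window also held a PU.1 core, and the Il1a window a PU.1 core and an AP-1 match. No printed window held the CRE form (1.55%). These matches are descriptions of letters and do not show that a factor was bound.

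The lists differed in length and depth, which bears on every presence or absence below. They held from 9910 peaks (monoculture normoxia replicate 2) to 29658 (co-culture hypoxia replicate 1), and both monoculture normoxia lists were shorter than all others. The number of fragments at each summit was solved from the deposited fold and −log10 p. Monoculture normoxia had the thinnest background, 0.758 and 1.03 fragments at the commonest level, against 1.07 and 1.38 for co-culture normoxia and 1.17 to 1.45 for the hypoxic libraries. The weakest called peak of a list held 6 to 8 fragments, so no peak means too few fragments to pass there, not closed chromatin. Of 12 microglia and macrophage marker genes, 6 had a peak within 10 kb in all 8 libraries, among them Ptprc (which encodes CD45), Aif1, Cx3cr1 and P2ry12, and each of the 12 had one in at least 3 libraries. Tmem119 had none in any hypoxic library. Of 14 glial and glioma marker genes, from 1 to 3 had a peak in a monoculture library and from 3 to 8 in a co-culture library, and Olig2, Sox9, Egfr, Fabp7 and Ptprz1 had none anywhere.

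Nlrp3 had 1 region, at chr11:59542426-59542941, inside the gene, and it covered the downstream start site. Its peak ranked at the 49.6 and 38.2 percentile of the monoculture hypoxia lists and at the 31.7 and 28.3 percentile of the co-culture hypoxia lists, where a percentile is the rank by −log10 p within a library's own list. All 4 normoxic lists lacked it, so the oxygen levels did not overlap in presence. The summits held 30, 30, 28 and 24 fragments in the same order and lay within 74 bp of each other, between −67 and 7 bases from the start. Scaled to the background coverage of the shallowest library, monoculture normoxia replicate 1, they corresponded to 14.9 to 16.1 fragments and to −log10 p from 7.28 to 9.17. That library's weakest peak had a −log10 p of 4.19. The part of depth in the missing normoxic peaks was not tested. The local background under these peaks was 2.71 to 3.45 times the commonest background of the list. In none of the lists did the Nlrp3 peak rank among the 9910 strongest, the length of the shortest list.

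Tlr4, the receptor upstream of these cytokines, had 5 regions, the most of any member. Region B, chr4:66827164-66828126, over the lower-coordinate end of the gene, had a peak in all 8 libraries, with summits within 118 bp of each other. It ranked at the 59.9 and 78.0 percentile in monoculture normoxia, 57.1 and 81.3 in monoculture hypoxia, 82.0 and 77.1 in co-culture normoxia, and 64.9 and 43.3 in co-culture hypoxia. Replicates differed most in monoculture hypoxia, and the groups overlapped except that both co-culture hypoxia peaks ranked below both of co-culture normoxia. Lists differ in length, so a difference in rank between them shows no change in accessibility, here or below. Among the 9910 strongest peaks of each list, region B was present in both libraries of both normoxic groups, in monoculture hypoxia replicate 2, and in neither library of co-culture hypoxia. Region D, within the gene, and region E, 5036 bp beyond its higher-coordinate end, each had peaks in 3 hypoxic and 3 normoxic libraries. Region A had a peak in replicate 1 of each hypoxic group, and region C in monoculture hypoxia replicate 1 only.

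**Figure D1:**
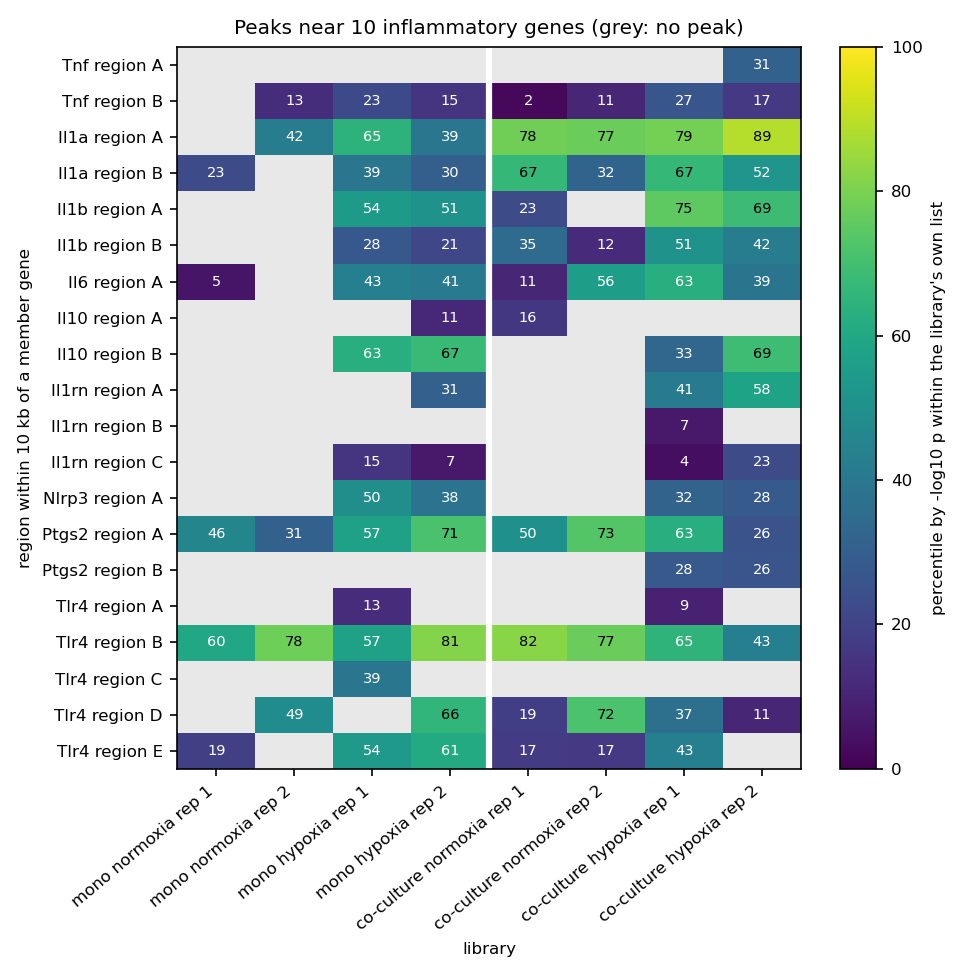
Percentile of the best peak in each of the 20 regions (rows, named by member gene and lettered in the order of their coordinates) within each library's own list (columns), by −log10 p; grey cells had no peak, and the white line separates monoculture from co-culture. Ptgs2 region A and Tlr4 region B are filled in all 8 columns, and Il10 region B, Il1rn region C and Nlrp3 region A only in the 4 hypoxic ones.

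Il1b, which encodes the interleukin-1 that inflammasomes release, had no peak at its start site in any library. Its 2 regions lay upstream. Region A, chr2:129373203-129373807, 2064 bp upstream of the start and overlapping the non-coding gene Il1bos, had a peak at the 54.4 and 51.03 percentile in monoculture hypoxia, at 75.2 and 68.6 in co-culture hypoxia, and at 22.9 in co-culture normoxia replicate 1. It was thus present in all 4 hypoxic libraries and in 1 of 4 normoxic ones. The 5 summits lay within 109 bp of each other and held 25, 25, 41, 33 and 12 fragments in the order given. Scaled to equal background coverage these were 13.1, 13.4, 21.8, 21.4 and 8.48 fragments.

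Region B of Il1b, chr2:129380200-129381304, 9061 bp upstream and beside the pseudogene Spcs2-ps, ranked at 27.5 and 21.4 in monoculture hypoxia, 35.1 and 12.2 in co-culture normoxia, and 50.8 and 42.2 in co-culture hypoxia. It was absent from both monoculture normoxia libraries and present in the 6 others. Il1b therefore had no peak at all within 10 kb in monoculture normoxia, and 1 or 2 peaks in every other library. Both monoculture normoxia lists were shorter than all others, and 12 of the 20 member regions had no peak in either. The share of all regions or coding genes absent only from monoculture normoxia is not given here, so this is not read as particular to Il1b.

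Il1a, which encodes the interleukin-1 that cells hold ready in the cytoplasm, also had no peak at its start site. Region A, chr2:129296878-129297907, is the highest ranked of all member regions, at 88.8 in co-culture hypoxia replicate 2, but it lies 1702 bp beyond the 3′ end of Il1a, over the neighbours Ckap2l and Gm14023, and cannot be assigned to 1 of them. It was missing only in monoculture normoxia replicate 1. Its other percentiles were 41.8 in monoculture normoxia replicate 2, 64.6 and 39.1 in monoculture hypoxia, 79.2 in co-culture hypoxia replicate 1, and 78.2 and 77.4 in co-culture normoxia. The co-culture ranks lay above the monoculture ranks, but the share of all regions with such a separation is not given here, so it is not read as a difference. Of the 7 peaks, 6 were among the 9910 strongest of their list. Region B, chr2:129319935-129320481, lay 9963 bp upstream of the start in 7 libraries, from 23.2 in monoculture normoxia replicate 1 to 66.8 in co-culture hypoxia replicate 1, and monoculture normoxia replicate 2 lacked it. It is among the regions closest to the 10 kb limit, 9749 bp from the gene body, and the nearest region just outside any member's limit was 10244 bp from Tlr4, with a peak in 5 libraries.

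Tnf, which encodes tumour necrosis factor, had no peak at its start site. Region B, chr17:35209882-35210833, 7875 bp upstream and beyond the neighbouring cytokine gene Lta, had low-ranked peaks in 7 libraries, at the 12.9 percentile in monoculture normoxia replicate 2, 22.6 and 15.0 in monoculture hypoxia, 2.32 and 10.7 in co-culture normoxia, and 26.7 and 16.6 in co-culture hypoxia. Its summits held 8 to 10 fragments in the normoxic libraries, near the least that a list called, and 14 to 22 in the hypoxic ones. With −log10 q of at least 5, every hypoxic list kept it and the normoxic lists did not. Il1rn region C was no longer hypoxia-only at that threshold. The share of all regions that are hypoxia-only there is not given here, so the call at Tnf is not read as a difference. In lists of equal length only monoculture normoxia replicate 2, the shortest list as deposited, kept Tnf region B, and no hypoxic list did. Region A, within the gene and 1075 bp downstream of the start, had a peak only in co-culture hypoxia replicate 2, at 31.1.

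Il6, which encodes a cytokine of fever and the acute phase, had 1 region, chr5:30012623-30013497, over its start site and overlapping the non-coding gene A230098N10Rik. Its peak ranked at 5.49 in monoculture normoxia replicate 1, 43.1 and 41.3 in monoculture hypoxia, 10.6 and 55.7 in co-culture normoxia, and 63.2 and 38.8 in co-culture hypoxia. Monoculture normoxia replicate 2 lacked it, and 1 normoxic peak ranked above 3 of the 4 hypoxic ones, so the oxygen levels overlapped. The median summit lay 140 bases after the start, while the kappaB match printed above begins at −44.

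**Figure D2:**
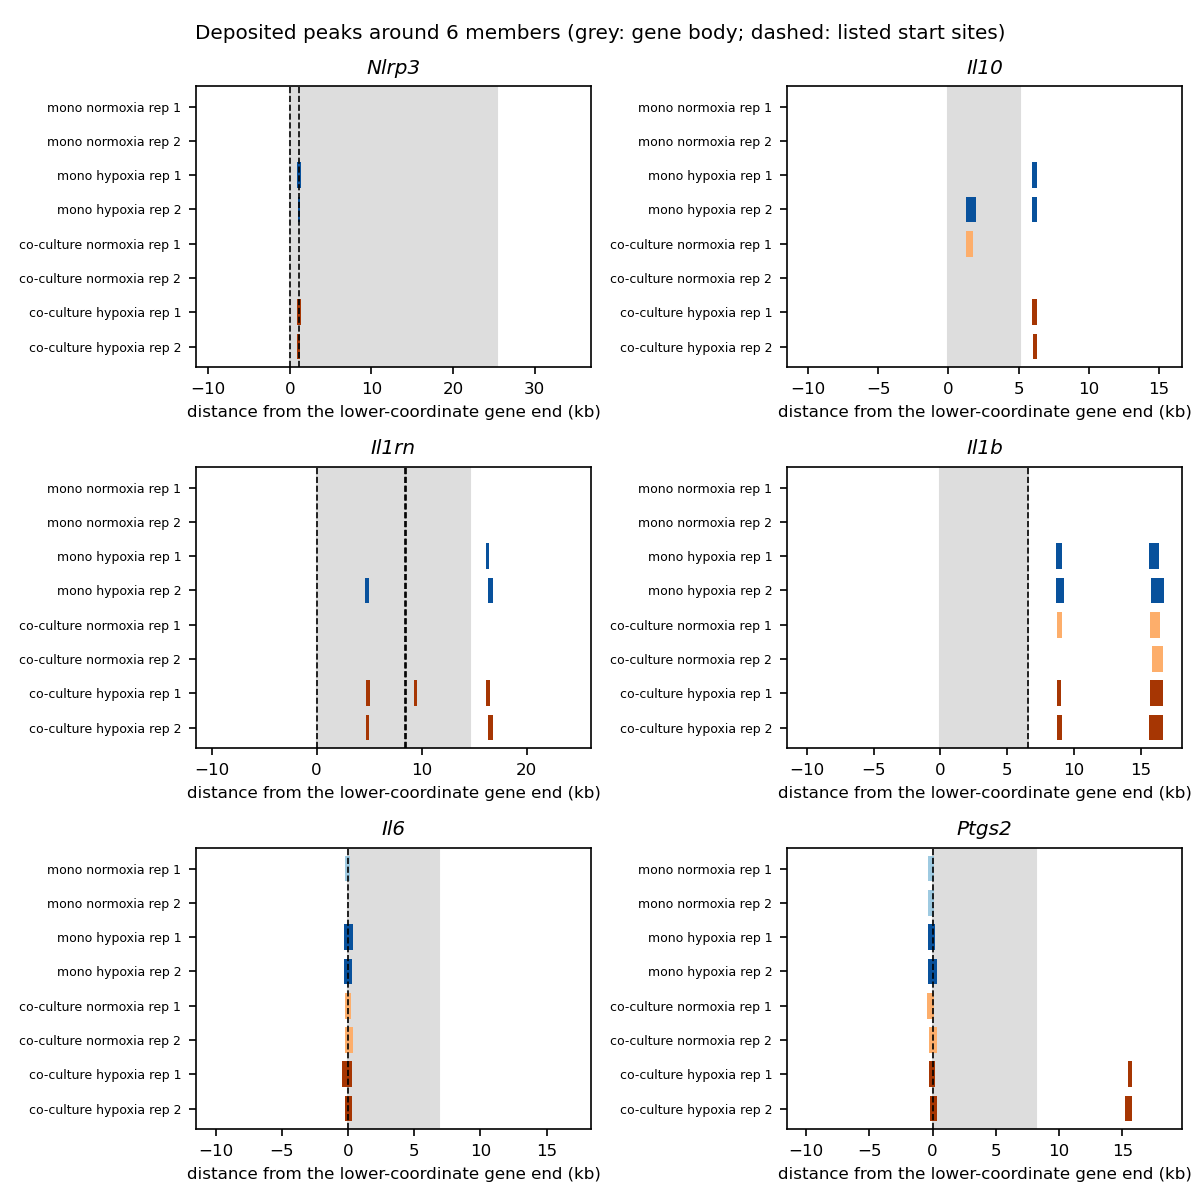
Deposited peaks (bars, 1 row per library, coloured by group) within 10 kb of 6 members, by distance in kb from the gene end with the lower coordinate; grey bands are gene bodies and dashed lines are start sites listed by RefSeq, of which Il10 had none. Peaks sit on the start sites of Il6 and Ptgs2 and the downstream start of Nlrp3, while those of Il1b lie 2064 and 9061 bp upstream of its start.

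Il10, which encodes the cytokine that restrains the response, had 2 regions. Region B, chr1:131025816-131026178, begins 846 bp beyond the higher-coordinate end of the gene. It ranked at 63.04 and 67.3 in monoculture hypoxia and at 32.9 and 68.8 in co-culture hypoxia, with 36, 45, 23 and 39 fragments, and no normoxic library had it. The 4 summits lay within 97 bp of each other. Scaled to equal background coverage they held 18.8, 24.1, 12.2 and 25.3 fragments, with −log10 p of at least 8.01. Among the 9910 strongest peaks of each list, 3 of the 4 hypoxic libraries kept it and co-culture hypoxia replicate 1 did not, while none kept the hypoxia-only regions of Nlrp3 and Il1rn. Il10 region A, inside the gene, had a peak in monoculture hypoxia replicate 2 and co-culture normoxia replicate 1, at 11.01 and 16.4.

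Il1rn, the interleukin-1 antagonist, had 3 regions, all of them without a peak in any normoxic library. Region C, chr2:24353012-24353693, begins 1521 bp beyond the 3′ end of the gene and ranked at 15.2 and 6.90 in monoculture hypoxia and at 3.72 and 23.3 in co-culture hypoxia. These are weak peaks of 13, 11, 12 and 15 fragments, and at equal background coverage only monoculture hypoxia replicate 1 and co-culture hypoxia replicate 2 kept it. Region A, chr2:24341488-24341972, between the upstream start and the 2 downstream starts, had better ranked peaks in 3 hypoxic libraries, at 30.6 in monoculture hypoxia replicate 2 and at 41.5 and 58.2 in co-culture hypoxia. Its summits lay within 25 bp of each other and held 27 to 32 fragments. Region B, 761 bp after a downstream start, had a peak only in co-culture hypoxia replicate 1, at 7.03. No start site of Il1rn was covered in any library.

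Ptgs2, which encodes the inducible cyclooxygenase of prostaglandin synthesis, had a peak over its start site in all 8 libraries (region A, chr1:150099559-150100357, which also reaches the non-coding gene Ptgs2os). It ranked at 46.0 and 31.0 in monoculture normoxia, 57.1 and 71.2 in monoculture hypoxia, 50.3 and 73.1 in co-culture normoxia, and 62.7 and 25.5 in co-culture hypoxia. Replicates differed most in co-culture hypoxia, and the oxygen levels overlapped. The summits lay between −100 and 66 bases from the start and held 19 to 59 fragments, or 13.9 to 31.7 at equal background coverage. Region B, chr1:150115227-150115805, 6993 bp beyond the 3′ end, had a peak in both co-culture hypoxia libraries, at 28.03 and 26.4, and in no other.

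Nos2, which encodes the inducible nitric oxide synthase, had no peak within 10 kb of its 39440 bp gene body in any list. Of 21887 protein-coding genes, 30.5% likewise had none. The nearest region, chr11:78984652-78985199, lay 24426 bp away at Lgals9 and had a peak in 7 libraries.

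**Figure D3:**
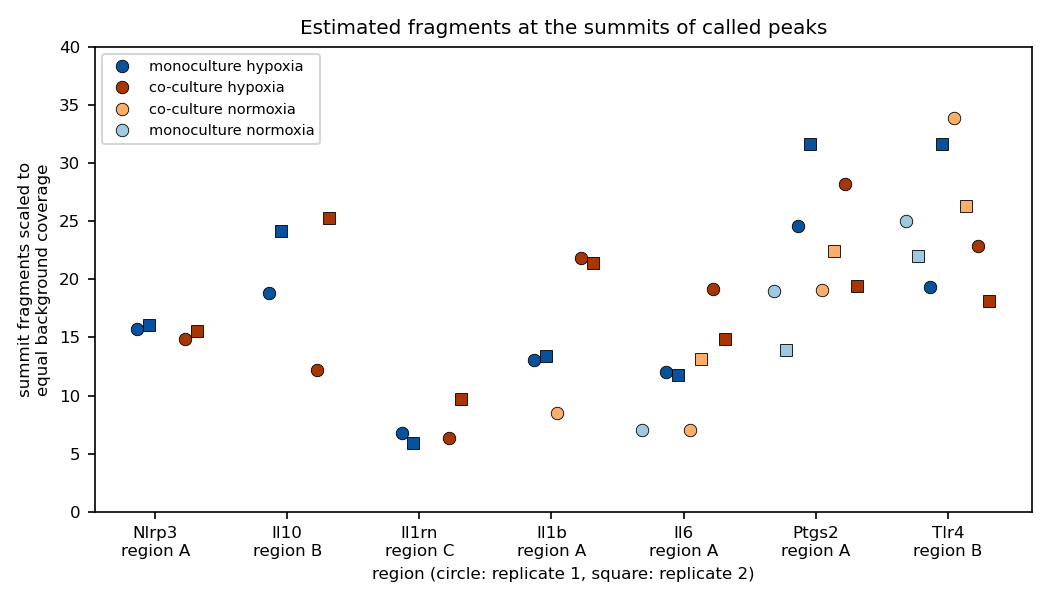
Estimated fragments at the summit of each called peak, scaled to the background coverage of the shallowest library, for 7 member regions (circles replicate 1, squares replicate 2, coloured by group; a library with no peak has no point). The 4 points of Nlrp3 lie between 14.9 and 16.1 and those of Il1rn region C between 5.90 and 9.72, while Ptgs2 region A and Tlr4 region B have points from all 8 libraries that overlap between oxygen levels.

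Counted by gene, 4 and 4 of the 10 members had a peak in the monoculture normoxia libraries, where 42.2% and 35.2% of all protein-coding genes had one. In monoculture hypoxia 9 and 9 members had a peak (57.1% and 57.9% of coding genes), in co-culture normoxia 7 and 6 (58.6% and 59.7%), and in co-culture hypoxia 9 and 9 (64.1% and 60.2%). The group means were 4 ± 0, 9 ± 0, 6.5 ± 0.707 and 9 ± 0 members (SD, n = 2 each). The share of members was close to that of all coding genes in normoxia and above it in all 4 hypoxic libraries. The same 9 members had a peak in each hypoxic library, all but Nos2. In the 9910 strongest peaks of each list this pattern was not seen: 2 and 4 members had a peak in monoculture normoxia, 2 and 3 in monoculture hypoxia, 2 and 4 in co-culture normoxia, and 2 and 4 in co-culture hypoxia, against 31.9% to 43.2% of coding genes. Il1a, Ptgs2 and Tlr4 had a peak in all 8 lists as deposited, as did 29.7% of coding genes. Il1rn and Nlrp3 had one in every hypoxic list but in none of the normoxic lists, as did 0.535% of coding genes.

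**Figure D4:**
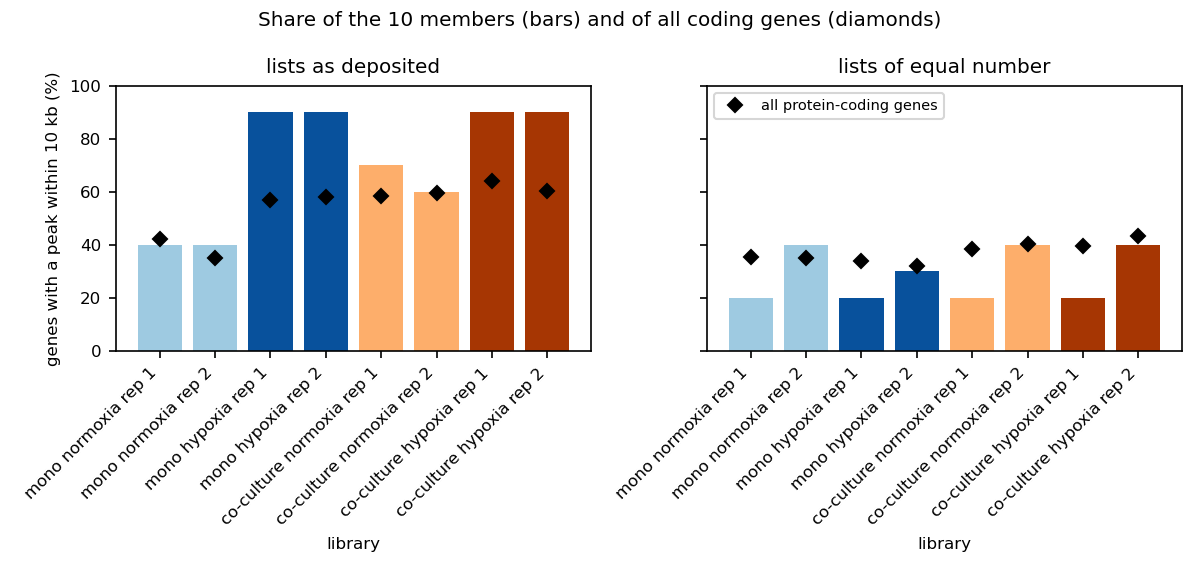
Percent of the 10 members (bars, coloured by group) and of all protein-coding genes (diamonds) with a peak within 10 kb in each library, in the lists as deposited (left) and in lists shortened to their 9910 strongest peaks (right). In the deposited lists the bars of the 4 hypoxic libraries stand above their diamonds, at 9 of 10 members, and in equally long lists they reach 2 to 4 members.

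Counted by region, 3 of the 20 member regions (15.0%) were hypoxia-only, against 2.08% of all regions. These were Nlrp3 region A, Il10 region B and Il1rn region C. None showed the reverse (0.0196% of all regions). At equal background coverage 2 of 20 remained, Nlrp3 region A and Il10 region B (background 2.08%), and among equally long lists none of 10 did (background 1.07%). No member region separated co-culture from monoculture in either direction (backgrounds 1.98% and 0.027%). Of the 20 regions, 15 had more hypoxic than normoxic libraries with a peak and 0 had fewer, against 62.0% and 12.6% of all regions. More co-culture than monoculture libraries had a peak in 11 and fewer in 1, against 50.5% and 21.1%. A peak in all 8 libraries was found in 2 of the 20 (10.0%), against 15.6% of all regions.

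Between pairs of groups, gained regions are those called in each library of the named condition and in neither of its reference. Hypoxia in monoculture gained 5 member regions, at Il1b (2), Il10, Il1rn and Nlrp3, which is 25.0% against 17.7% of all regions, and lost 0 (0.179%). Hypoxia in co-culture also gained 5, at Il10, Il1rn (2), Nlrp3 and Ptgs2, against 6.09% of all regions, and lost 0 (2.05%). Co-culture in normoxia gained 1, Il1b region B (12.5% of all regions), and lost 0 (0.181%). Co-culture in hypoxia gained 1, Ptgs2 region B (5.83%), and lost 0 (3.76%). Beside both culture gains, the 14 glial marker genes had 1 and 1 peaks in monoculture normoxia, 2 and 4 in monoculture hypoxia, 10 and 6 in normoxic co-culture and 17 and 6 in hypoxic co-culture. Their part in these 2 gains was not tested. The gain at Il1b rests on the 2 shortest lists. Leaving out a library raised the calls over all regions as well, so each count is given with the share of all regions under the same omission. Co-culture in normoxia gained 4 of 20 without monoculture normoxia replicate 1 (20.6% of all regions) or replicate 2 (15.5%), and 3 without co-culture normoxia replicate 2 (21.4%). Hypoxia in monoculture gained 8 without monoculture normoxia replicate 1 (27.0%). Hypoxia in co-culture lost 1 without co-culture normoxia replicate 2 (5.79%) or co-culture hypoxia replicate 1 (6.44%). Co-culture in hypoxia gained 3 without monoculture hypoxia replicate 2 (8.65%), and 2 without co-culture hypoxia replicate 1 (8.85%) or replicate 2 (16.8%). It lost 1 without monoculture hypoxia replicate 1 (11.4%), monoculture hypoxia replicate 2 (8.12%) or co-culture hypoxia replicate 1 (11.4%).

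Most of these calls ended in lists of equal length, which held 10 member regions. Hypoxia in monoculture then gained 1 of 10, Il10 region B, against 7.39% of all regions. Hypoxia in co-culture gained 1, Il1b region A (5.45%), which was none of the 5 named above, and lost 1, Tlr4 region B (5.73%). Co-culture in normoxia gained none (4.88%), and co-culture in hypoxia gained Il1b region A (7.39%) and not Ptgs2 region B. With 10 regions, a single call is near these shares.

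The number of peaks within 10 kb of each member was compared over all 8 libraries by a two-sided exact permutation test, with labels permuted within the other factor (36 relabellings, smallest p 0.0556), so no single gene could pass 0.05. Il1rn had 2 peaks on average in hypoxia and 0 in normoxia (exact p = 0.0556, Benjamini-Hochberg adjusted over 20 tests 0.556), with each hypoxic library (1, 2, 3 and 2 peaks) above each normoxic one. Nlrp3 had 1 peak in every hypoxic library and 0 in every normoxic one (exact p = 0.0556, adjusted 0.556). Il1b had a mean of 2 in hypoxia and 0.75 in normoxia, a difference of 1.25 against a pooled SD between replicates of 0.354 (exact p = 0.167, adjusted 0.741). With a window of 2 kb the Il1b difference was 0 by oxygen and by culture. Il10 had 1.25 and 0.25, against an SD of 0.5 (exact p = 0.167, adjusted 0.741). For Tlr4 the difference of 0.75 was smaller than the SD of 0.791 (exact p = 0.444), and it was 0.25 without co-culture hypoxia replicate 1 and 1.25 without co-culture hypoxia replicate 2. In lists of equal length the oxygen differences were 0.25 at Il1rn, 0 at Nlrp3, 0.5 at Il1b and 0.75 at Il10 (exact p from 0.167 to 1). By culture, in the lists as deposited, the differences lay between 0 and 0.75 peaks, the highest at Il1b (exact p = 0.333, adjusted 0.741), and none had an exact p under 0.333. With a window of 50 kb the culture differences ranged from 0 at Il6 to 2 at Tnf (exact p = 0.0556 at Tnf, the smallest possible). They were 1.75 at Il1a and Il1b (exact p = 0.167 each).

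Of 64 other genes of cytokine, receptor, inflammasome and prostanoid pathways, 63 were found in the annotation. A peak lay within 10 kb of 29 of them in all 8 libraries, among them Ly96, the co-receptor of Tlr4 for endotoxin, the adaptor Myd88, and Casp1, the inflammasome protease. Of all coding genes, 29.7% had a peak in all 8 and 30.5% in none. Of the 63 genes, those with no peak in any library were 4: Il12a, Il12b, Tlr8 and Pycard. A hypoxia-only region lay near 7 of the 63, Il33, Osm, Il1rap, Tlr2, Irak2, Ptges and Nos3, and near 3 of the 10 members, against 3.11% of all coding genes. These calls are from the lists as deposited, and whether those near the 7 genes hold in lists of equal length is not given here. The region inside Il1rap, the co-receptor for interleukin-1, ranked from 74.1 to 92.3, and that inside Ptges, the prostaglandin E synthase, from 1.57 to 17.1. None of the 63 had a region with the reverse pattern. A region called in every co-culture library and absent from monoculture lay near 1 of them, Il6ra, and near none of the members, against 3.54% of coding genes. Per library, from 33 to 56 of the 63 genes had a peak, with 39 and 33 in monoculture normoxia, 54 and 52 in monoculture hypoxia, 51 and 44 in normoxic co-culture and 56 and 48 in hypoxic co-culture, where the share of all coding genes ran from 35.2% to 64.1% over the 8 lists. In the 9910 strongest peaks of each list the counts were nearly level, at 35 and 33, 34 and 34, 37 and 36, and 36 and 33 in the same order. The share of all coding genes in these shortened lists ran from 31.9% to 43.2%.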

How the data were processed

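The 8 lists are narrowPeak tables, 1 per library, so the authors called peaks per library and not on pooled replicates. The deposited fold is a ratio of summit to background in that library, and its −log10 p, as deposited, was used to rank peaks. The deposited −log10 q values began just above 2, the deposited score was not used, and summits are deposited as distances from the peak start. The submitters' processing notes name Trimmomatic 0.36, HISAT2 2.1.0, Picard, SAMtools, deepTools, MACS2 2.1.1.2 and build mm10 without roles; read filters and any Tn5 shift are not given in the sources used here.

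Genes came from RefSeq GRCm38.p6. Peaks were merged on any overlap of 1 bp. Summit fragments n and background b were solved from fold = (n + 1)/(b + 1) and a Poisson p, to within 0.001 in −log10 p for 100% of the peaks tried in each list. Those with a −log10 p over 250 were not tried. Alternatives were lists of equal number (the 9910 strongest), equal background coverage, windows of 2 and 50 kb, −log10 q of at least 5, summit windows of 250 bp on each side, overlap of at least 1 in 2 bases, and leaving out each library. The solver and the region calls were checked on simulated data. For the calls these were well separated regions, which checks the code and not the effect of depth or missed peaks. Members, lists and tests were chosen with earlier results of these data known. All members are named. Regions with full values are those within 1 kb of a start site, those separating 4 libraries from 4 or 2 from 2, and each member's region with the highest median percentile (absent as 0); a few others were added after their values were seen. Software was matplotlib 3.10.9, pandas 2.3.3, scipy 1.17.1 and numpy 2.4.6 under Python 3.11.15.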

Additional observations from a re-analysis of the deposited data

How the results depend on the processing

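Equally long lists changed most. With the 9910 strongest peaks of each list, regions in all 4 hypoxic and no normoxic library fell from 3 to 0, gains with hypoxia to 1 of 10 in monoculture (Il10 region B, 7.39% of all regions) and 1 of 10 in co-culture (Il1b region A, 5.45%, none of the 5 gained before), and gains with co-culture in normoxia to 0 (4.88%). The gain with co-culture in hypoxia was also at Il1b, not Ptgs2, while 1 region, at Tlr4, was lost with hypoxia in co-culture (5.73%). A fixed length ties every gain in a list to a loss elsewhere in it. Hypoxic minus normoxic members with a peak turned from 3.75 to −0.25, and the culture difference from 1.25 to 0.25. The pooled SD between replicates was 1.27 in these shortened lists. Differences in peak number by oxygen turned to −0.25 at Tnf and Il6, −0.5 at Ptgs2 and −1 at Tlr4, and by culture to −0.25 at Tnf and −0.5 at Ptgs2 and Tlr4 (exact p from 0.278 to 1). By oxygen, Il1rn went from 2 to 0.25 and Nlrp3 from 1 to 0 (exact p = 1 each), Il1b from 1.25 to 0.5 (exact p = 0.333) and Il10 from 1 to 0.75 (exact p = 0.167). At equal background coverage, chosen after seeing the data, the member differences were 4.25 and 0.75 (pooled SD between replicates 0.354). With −log10 q of at least 5 the oxygen difference was 5 (pooled SD 0.707). No share of coding genes is given at either setting, so a change common to all genes cannot be told apart here. A window of 2 kb held 13 member regions and gave 3 hypoxia-only regions (23.1%, against 2.08% of all regions), 3 and 4 gains with hypoxia in monoculture and co-culture (23.1% and 30.8%, against 17.7% and 6.09%) and 0 gains with co-culture in normoxia or hypoxia (against 12.5% and 5.83%). A window of 50 kb held 48 and gave 6 hypoxia-only regions (12.5%, against 2.08% of all regions), 17 and 10 gains with hypoxia in monoculture and co-culture (35.4% and 20.8%, against 17.7% and 6.09%), 8 and 2 gains with co-culture in normoxia and hypoxia (16.7% and 4.17%, against 12.5% and 5.83%), 2 losses with co-culture in hypoxia (4.17%, against 3.76%), and member differences of 1.75 by oxygen and by culture. For the member differences at 50 kb the pooled SD between replicates was 1.77, and no share of coding genes is given there. Summit windows moved none of the 12 region counts by over 1.5 times, and the overlap of 1 in 2 bases is identical by construction.

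Leaving out 1 library gave 3 to 4 hypoxia-only regions (4 of 20 without monoculture hypoxia replicate 1, against 2.84% of all regions, or co-culture normoxia replicate 1, against 3.43%). Gains with hypoxia ranged from 5 to 8 in monoculture (8 without monoculture normoxia replicate 1, against 27.0%) and from 5 to 7 in co-culture (the 7 with co-culture hypoxia replicate 2 left out, against 20.6%), where losses ranged from 0 to 1 (1 without co-culture normoxia replicate 2 or co-culture hypoxia replicate 1). Gains with co-culture ranged from 1 to 4 in normoxia and from 1 to 3 in hypoxia (3 without monoculture hypoxia replicate 2, 2 without either co-culture hypoxia library), where losses ranged from 0 to 1 (1 without either monoculture hypoxia library or co-culture hypoxia replicate 1). The member differences ranged from 3.5 to 4 by oxygen and from 1 to 1.5 by culture. The Tlr4 culture difference ranged from −0.25 (without co-culture hypoxia replicate 1) to 0.75.

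With the replicate number as a block (paired relabelling, 16 relabellings, smallest p 0.125), the differences are the same by construction, 2 peaks at Il1rn and 1 at Nlrp3 by oxygen (exact p = 0.125 each), and none passed. Deviations of same-numbered libraries correlated from −0.0202 to 0.0396 over 6 group pairs. With n = 2 per group this cannot exclude pairing.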

Other observations

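Some regions beyond the 10 kb limit showed the same hypoxia-only pattern. They are the 3 that a window of 50 kb adds to the 3 within 10 kb. Upstream of Nlrp3, the gene's nearest region outside the limit, chr11:59526242-59527321, lay 14248 bp from the gene body, overlapped no annotated gene, and was called in each hypoxic library and in none of the others. Within 50 kb of Il6, a region inside Tyms (chr5:30039905-30040499, 19930 bp away) had this pattern, as did one overlapping Nfkbil1 and Atp6v1g2 (chr17:35235399-35236587, 33392 bp from Tnf). The latter 2 lie in or at other genes and cannot be assigned to the cytokine.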
